A study of Arabidopsis thaliana with 4 samples.

Results

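Genic CpG regions outside transposons are the differentially methylated regions (DMRs) in the CpG context to which the authors' annotation gave a gene but no transposable element (TE). They were taken from the tables of called DMRs of 4 comparisons between light regimes, each region was counted once per table, and a region was left out if any of its lines named a TE locus or family. This gave 3006 regions, which were 36.9% of the 8154 CpG DMRs and belonged to 24806 DMRs of all contexts. They lay at 2541 distinct positions and named 2267 loci, of which 2055 were nuclear protein-coding genes, or 7.49% of the 27444 in the reference. Another 4025 CpG DMRs named a TE, and 1123 named neither.

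The study grew Arabidopsis thaliana of the Col-0 accession under light that followed a natural pattern of peaks and troughs, at low (FLL) or high (FLH) intensity, or under a square wave of constant light, at low (SQL) or high (SQH) intensity, and asked whether the regime changed leaf DNA methylation. The plants came from seed of a single parent, and the series' description gives 22 days of acclimation. Leaf DNA of 6 wild-type plants was pooled into 1 library per regime and sequenced after bisulfite treatment, which leaves methylated cytosines as cytosine and turns the others into uracil. With 1 library per regime no difference has a replicate check, and every test below compares libraries and not growth conditions.

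In Arabidopsis, CpG methylation is copied to the new DNA strand after replication by the methyltransferase MET1, which acts with VIM proteins that bind half-methylated sites. Many genes that are expressed at moderate and steady levels carry CpG methylation inside the transcribed part, away from both gene ends and without the CpHpG and CpHpH methylation that marks silenced TEs (H is A, C or T). This gene body methylation is inherited through cell division and between generations, varies between lines and sites, and its effect on expression is debated. A level between the extremes in leaf DNA can mean that some of the DNA molecules were methylated and others were not. It can also mean that sites within the region differed. The levels here are summed over the sites of a region and do not tell these apart.

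The regions are short stretches of ordinary gene sequence with few CpG sites. The first pair shown here is the coding-exon regions of AT3G58730, a subunit of the vacuolar proton pump, and AT1G20925, of the auxin efflux carrier family, which had the largest differences and were called in all 4 comparisons. Sequences are from the RefSeq genome (TAIR10), plus strand, with every CpG in capitals. Both regions held 4 CpG cytosines, counted over both strands, within 150 bases, and in both the CpG sites lay close together.
AT3G58730, chr3:21718601-21718750: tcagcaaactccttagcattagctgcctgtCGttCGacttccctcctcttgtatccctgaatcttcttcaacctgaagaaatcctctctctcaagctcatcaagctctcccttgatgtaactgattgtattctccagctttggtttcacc
AT1G20925, chr1:7291951-7292100: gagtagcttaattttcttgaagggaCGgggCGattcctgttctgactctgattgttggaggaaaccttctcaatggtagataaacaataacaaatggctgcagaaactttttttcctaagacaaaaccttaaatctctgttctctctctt

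The second pair is the regions of CRD1, an enzyme of chlorophyll synthesis, and AT1G27880, a DEAD/DEAH box RNA helicase, whose levels in both FL libraries lay apart from those in both SQ libraries. Each held 6 CpG cytosines. The CRD1 region lay in a coding exon and that of AT1G27880 in an intron.
CRD1 AT3G56940, chr3:21077651-21077800: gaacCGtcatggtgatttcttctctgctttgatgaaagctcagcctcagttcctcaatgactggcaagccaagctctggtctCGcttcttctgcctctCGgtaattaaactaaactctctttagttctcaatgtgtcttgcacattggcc
AT1G27880, chr1:9712501-9712650: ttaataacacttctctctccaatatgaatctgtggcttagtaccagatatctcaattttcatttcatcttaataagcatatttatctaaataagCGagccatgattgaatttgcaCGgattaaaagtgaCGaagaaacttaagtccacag

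The last set shows regions in the clock genes CCA1 and GI and in the methyltransferase genes MET1 and CMT3, all of which lay in coding exons. CCA1 and CMT3 held 4 CpG cytosines here and GI and MET1 held 6. A level at these places therefore rests on few sites, each read several times.
CCA1 AT2G46830, chr2:19247801-19247950: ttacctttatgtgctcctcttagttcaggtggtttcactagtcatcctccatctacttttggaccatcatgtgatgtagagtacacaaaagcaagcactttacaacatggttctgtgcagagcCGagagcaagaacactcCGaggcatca
GI AT1G22770, chr1:8065201-8065350: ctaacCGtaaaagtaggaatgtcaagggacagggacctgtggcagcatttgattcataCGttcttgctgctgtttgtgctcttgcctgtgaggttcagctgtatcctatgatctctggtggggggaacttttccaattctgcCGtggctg
MET1 AT5G49160, chr5:19936955-19937104: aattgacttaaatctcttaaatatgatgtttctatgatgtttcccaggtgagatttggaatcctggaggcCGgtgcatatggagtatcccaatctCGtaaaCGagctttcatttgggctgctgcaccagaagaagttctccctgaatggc
CMT3 AT1G69770, chr1:26249701-26249850: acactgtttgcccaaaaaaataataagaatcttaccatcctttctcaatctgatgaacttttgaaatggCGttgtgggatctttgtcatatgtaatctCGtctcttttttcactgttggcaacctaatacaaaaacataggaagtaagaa

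The number of cytosines that the deposited tables list was equal to that of the TAIR10 sequence at all 3006 regions. The region overlapped its named locus in 2974 cases, lay beside it in 17, and named a locus that the reference does not hold in 15. Protein-coding genes were named by 2738 regions (91.1%), transcribed pseudogenes by 96, other pseudogenes by 127, and genes of long noncoding RNAs, miRNAs, tRNAs, rRNAs or other RNAs by the few that remained. DMRs of the CpHpG or CpHpH context rarely overlapped them. A CpHpG DMR of the same comparison lay at 0% to 0.715% of the genic regions and at 1.64% to 9.80% of the CpG DMRs that named a TE, and for CpHpH the ranges were 0% to 0.561% and 1.76% to 3.92%.

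Most regions lay outside the gene-poor part of the chromosomes. Of the distinct positions, 11.2% (95% Wilson interval 10.05 to 12.5) were in windows of 500 kb whose gene number was below 0.5 times the median window, against 66.1% of the CpG DMRs that named a TE. Inside protein-coding genes the share was 6.20% (5.28 to 7.27), against 3.59% of the bins of such genes that hold at least 4 CpG cytosines. These bins were not filtered by depth or for overlap with a TE, so not all of them could have become a genic region. SQL against SQH had 0 of 24 regions in the gene-poor windows, with a 95% upper limit of 13.8%. Exact copies were few, since the middle 50 bp of 53 positions (2.09%) occurred elsewhere in the genome, 10 of them in the mitochondrial sequence.

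The comparison FLL against SQL held 1430 genic CpG regions, FLL against FLH 839, FLH against SQH 713 and SQL against SQH 24. As a background, 0.621%, 0.405%, 0.364% and 0.0129% of the 598811 bins of 150 bp with at least 4 CpG cytosines lay in any CpG DMR in these comparisons, in the same order. The low number in SQL against SQH cannot be set beside the others as it stands, because the smallest difference among its genic regions was 40.3 percentage points, whereas it was 20 points in the other 3 tables. With a minimum of 40 points in every table, 46 regions remained in FLL against SQL, 25 in FLL against FLH, 31 in FLH against SQH and 24 in SQL against SQH. The genic regions made up 40.0%, 35.3%, 33.5% and 31.6% of the CpG DMRs of these comparisons.

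Direction differed between the comparisons. A gain is a higher level in the regime named first. In FLL against SQL 443 of 1430 regions gained methylation in FLL (30.98%, 28.6 to 33.4) and 987 lost it, beside 22.4% gains among all CpG DMRs of that comparison. In FLL against FLH gains and losses were nearly balanced, at 427 and 412 (50.9% gains, 47.5 to 54.3, beside 51.3% of all CpG DMRs). In FLH against SQH 307 gained and 406 lost (43.1%, 39.5 to 46.7, beside 42.4%), and in SQL against SQH 17 gained and 7 lost (70.8%, 50.8 to 85.1, beside 80.3%).

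The genic regions differed from those in TEs in 1 of the 4 comparisons. In FLL against SQL, gains made up 30.98% of the genic regions and 15.6% of the 1646 CpG DMRs that named a TE, a difference of 15.4 points (two-sided Fisher's exact test with Benjamini-Hochberg adjustment over 4 comparisons, p = 1.8e-23). The differences were -13.5 points in SQL against SQH (p = 0.439), -1.30 points in FLL against FLH (p = 0.589) and 2.20 points in FLH against SQH (p = 0.475, all adjusted and exact). In FLL against SQL the median level in SQL was 86.0% in the TE regions and 56.0% in the genic regions. A region close to full methylation in SQL has no room for a gain of 20 points, and how far this shaped the contrast was not tested. The 2 comparisons of light pattern, which share no library, also differed from each other. The share of gains was 12.1 points lower in FLL against SQL than in FLH against SQH among genic regions (exact test, adjusted p = 8.3e-08). Between the 2 comparisons of intensity it was 19.9 points lower in FLL against FLH than in SQL against SQH (exact test, adjusted p = 0.0629), but the tables differ in their smallest difference. At 8 reads per cytosine or more in both regimes that gap was -1.94 points (exact test, adjusted p = 1.0), with 54.5% gains among 11 regions in SQL against SQH. Among regions with a difference of at least 40 points, neither the contrast with TEs (34.8% gains, 21.3 points more than in TEs, adjusted p = 0.068) nor that between the comparisons of pattern (-20.1 points, adjusted p = 0.148) passed the threshold in the same exact tests, on the 46 and 31 regions that were left.

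**Figure D1:**
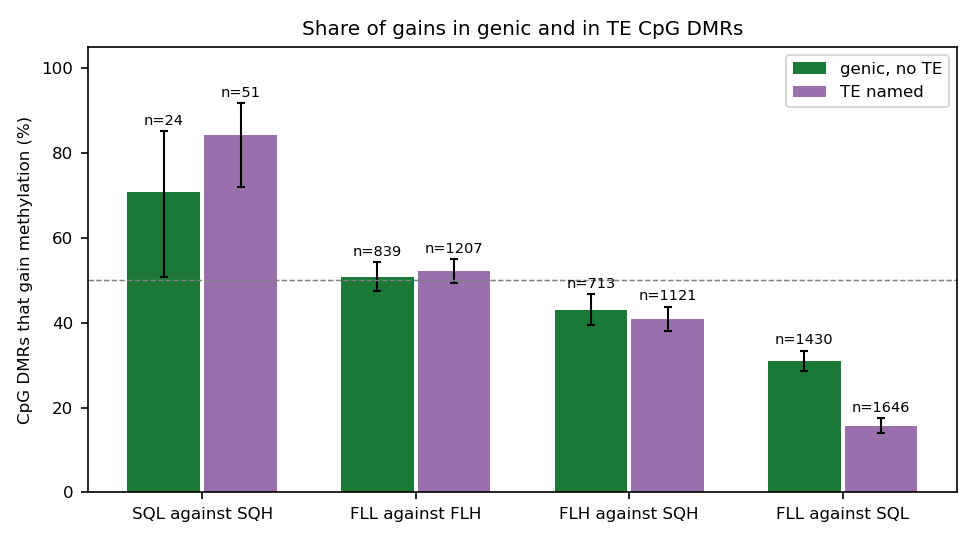
Share of CpG DMRs that gained methylation in the regime named first (vertical axis, percent) in each comparison, for genic regions outside TEs (green) and for CpG DMRs that name a TE (purple). Error bars are 95% Wilson intervals over DMRs and n is the number of DMRs. In FLL against SQL the genic share of 30.98% lies above the TE share of 15.6%, and in the other 3 comparisons the intervals overlap.

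The levels were intermediate in most regions. In FLL against SQL the median level of the losses was 40.4% in FLL and 67.4% in SQL, and that of the gains was 56.7% in FLL and 30.0% in SQL. In FLL against FLH the losses had medians of 40.3% in FLL and 69.2% in FLH, and the gains 68.8% in FLL and 39.7% in FLH. In FLH against SQH they were 41.1% in FLH and 70.4% in SQH for losses, and 76.7% in FLH and 48.5% in SQH for gains. The gains of SQL against SQH had 74.1% in SQL and 30.8% in SQH, and its losses 22.2% in SQL and 78.4% in SQH. In most regions a loss thus did not empty the region, nor did a gain fill it.

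Over gains and losses together, the median levels were 44.4% in FLL and 56.0% in SQL, 53.7% in FLL and 53.8% in FLH, 58.0% in FLH and 59.5% in SQH, and 64.4% in SQL and 37.6% in SQH. CpG DMRs that named a TE were more methylated, with 63.2% in FLL and 86.0% in SQL. The median absolute difference of the genic regions was between 24.7 and 25 points in the 3 tables with the lower minimum and 43.0 points in SQL against SQH. The lower of the levels was under 5% in 189 regions of FLL against SQL, in 101 of FLL against FLH, in 49 of FLH against SQH and in 3 of SQL against SQH, and it was 0 in 104, 63, 26 and 1 of these. The higher level was over 90% in 219, 164, 174 and 3 regions.

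**Figure D2:**
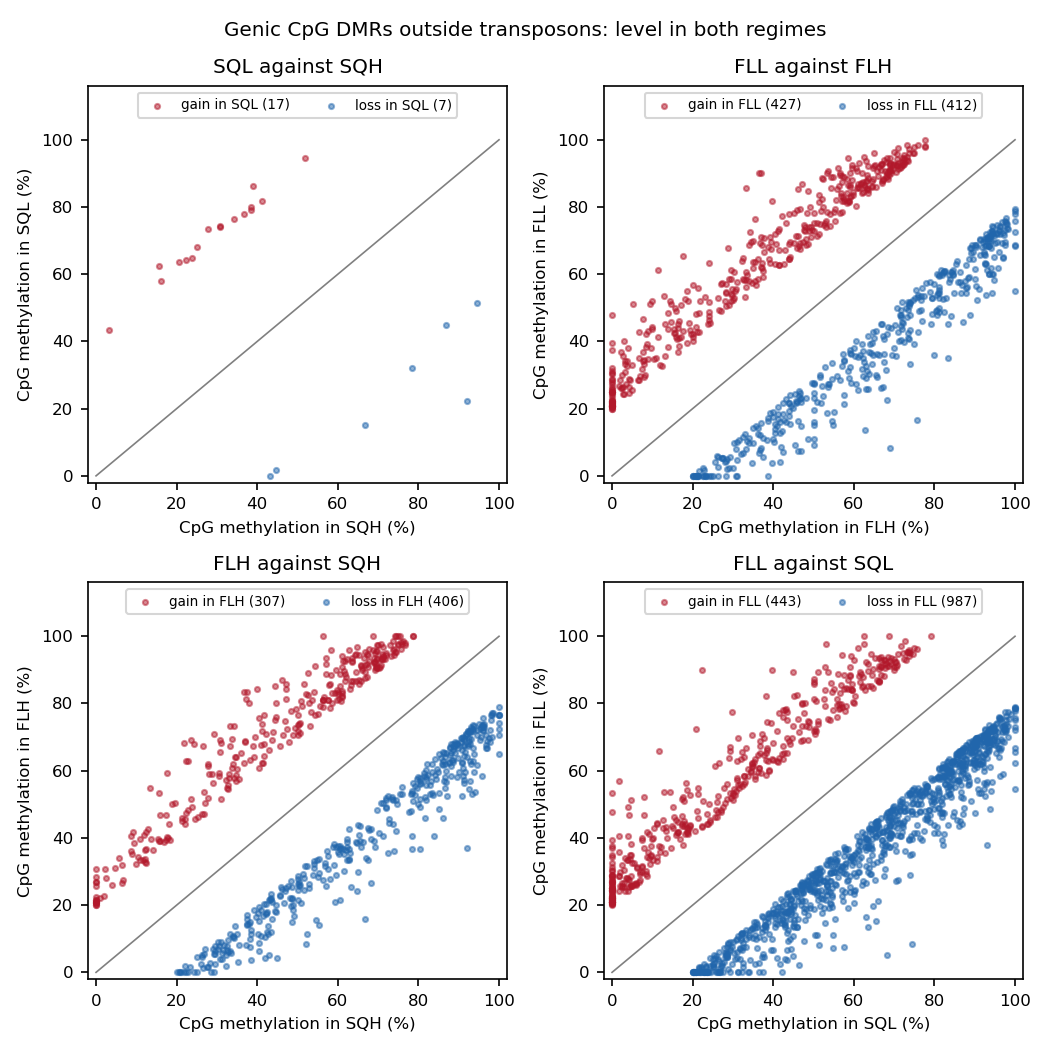
CpG methylation of every genic region in the regime named first (vertical axis, percent) against that in the other regime (horizontal axis, percent), with 1 panel per comparison, gains in red, losses in blue and equal levels on the grey line. The empty band along the line is the minimum difference of the calling, 20 points in 3 panels and about 40 points in SQL against SQH. In FLL against SQL the 987 losses, below the line, outnumber the 443 gains above it.

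The depth of these regions was low and differed between libraries. The median number of reads per CpG cytosine was 10.6 in FLL, 9.38 in FLH, 10.5 in SQL and 8.88 in SQH, and a region was covered by a median of 38.5 to 71 reads summed over its cytosines. In SQL against SQH the medians were 10 in SQL and 7.81 in SQH. A depth of 8 reads per cytosine was reached in both libraries by 1097 of 1430 regions in FLL against SQL and by 375 of 713 in FLH against SQH. Wilson intervals on the summed reads were apart in all regions of 3 comparisons and in 23 of 24 of SQL against SQH. The regions were called on these same reads, so this is not a check of the differences. A read that spans several sites is counted once for each. With intervals computed on the mean depth of a cytosine instead of the summed reads, they stayed apart in 6 regions of FLL against SQL, 3 of FLL against FLH, 0 of FLH against SQH and 1 of SQL against SQH.

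Within protein-coding genes the positions lay mostly in coding exons, and more towards the end of the gene than the start. Coding exons held 1468 of the 2258 positions whose midpoint was in such a gene (65.0%, 63.0 to 67.0), against 57.3% of the 340798 bins of these genes with at least 4 CpG cytosines. Introns held 30.9% (29.0 to 32.8) against 26.7% of the bins. The untranslated regions held few positions, with 13 in 5' UTRs (0.576% against 7.86% of the bins) and 79 in 3' UTRs (3.50% against 8.17%). Those shares were close to each other in 3 comparisons, with coding exons at 64.2% to 66.0% and introns at 30.1% to 32.5%. In SQL against SQH, where every difference was above 40 points, introns held 13 of 22 regions (59.1%, 38.7 to 76.7) and coding exons 9 of 22. Of its genic regions 79.2% held only 4 CpG cytosines, against 19.2% to 26.9% in the other comparisons. Whether this shaped the shares was not tested. When a region was placed by any overlap, coding exons first, introns held 5.74% of all distinct positions, so many of the intron regions also touch an exon.

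Along the gene, the number of positions per 1000 bins was 1.17 in the first of 10 equal parts from the start, reached its highest value of 10.5 in the 7th and was 4.77 in the last. The first 500 bp of a gene held 6.16% of the positions but 22.4% of the bins, and the last 500 bp held 15.5% of the positions and 19.6% of the bins. The median distance from the gene start was 1845 bp. Genes with a region were long, with a median of 3330 bp and 8 exons, against 2078 bp and 4 exons for all protein-coding genes, and 57.3% of them were in the top quartile of length. A long gene has more bins in which a region can be called, and this part of the difference was not tested. The median GC content was 40% at the positions and 40% in the bins. The median number of CpG cytosines was 8 at distinct positions of 1 bin and 8 in the bins. Per comparison, where positions recur between comparisons and wider regions are included, it was 6 in FLL against SQL, 7 in FLL against FLH, 8 in FLH against SQH and 4 in SQL against SQH.

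**Figure D3:**
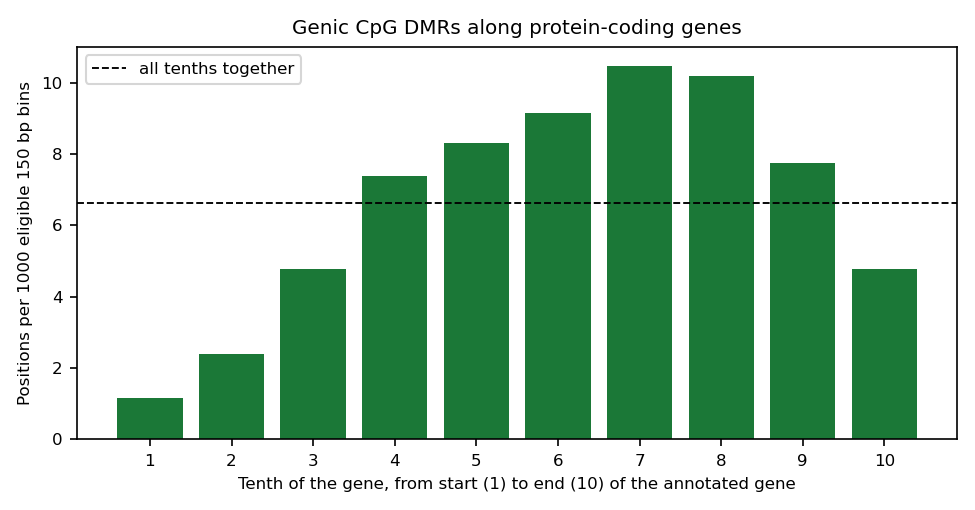
Number of distinct positions of genic CpG regions per 1000 bins of 150 bp with at least 4 CpG cytosines (vertical axis) in each of 10 equal parts of protein-coding genes from start to end (horizontal axis). The dashed line is the value over all parts, 6.63 per 1000. The bars are lowest in the first part (1.17), highest in the 7th (10.5) and end at 4.77.

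The largest differences were found in a few genes. By the rule of the 2 largest gains and losses per comparison at a depth of at least 8 reads per cytosine, AT3G58730, subunit D of the vacuolar proton pump that acidifies the vacuole, was named in all 4 comparisons. Its level was 90.0% in FLL (60 reads), 37.0% in FLH (46 reads), 22.2% in SQL (45 reads) and 92.1% in SQH (38 reads). It was thus high in the libraries of FLL and SQH and low in those of FLH and SQL. AT1G20925 of the auxin efflux carrier family had 8.33% in FLL (48 reads), 69.0% in FLH (42 reads), 74.4% in SQL (39 reads) and 30.8% in SQH (39 reads), which is the opposite arrangement.

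Other genes named by this rule were named for fewer comparisons. LBD16, a transcription factor of lateral root formation, had 62.5% in SQL and 15.6% in SQH, in an intron on chromosome 2 from 17664101 to 17664250. SIP1, annotated as seed imbibition 1, had 32.2% in SQL and 78.4% in SQH, also in an intron. EMB1444, a bHLH protein, had 90.1% in FLL and 36.5% in FLH (91 and 85 reads), and the pseudogene AT1G30935 had 16.7% in FLL and 75.6% in FLH. The regions of EMB1444 and AT1G30935 lay in exons.

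In FLH against SQH the other genes named were AT1G51990, an O-methyltransferase, with 69.0% in FLH and 23.7% in SQH, and YSL5, of a family of metal transporters, with 71.0% in FLH and 29.2% in SQH. The protein kinase AT3G59110 had 36.8% in FLH and 80.3% in SQH. In FLL against SQL, AT1G20760, a calcium-binding EF hand protein, had 56.8% in FLL and 1.69% in SQL, so that the region was nearly free of CpG methylation in SQL. UMAMIT31, of a family of amino acid transporters, had 13.5% in FLL and 63.6% in SQL.

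Most positions were called between a single pair of libraries. Of the 2541 positions, 2126 were listed in 1 table, 370 in 2, 40 in 3 and 5 in 4, so levels were known in 2 regimes at 2126 positions, in 3 at 353 and in all 4 at 62. FLH against SQH and FLL against SQL have no library in common, and both listed 61 identical positions, which is 8.56% of the genic regions of FLH against SQH and 4.27% of those of FLL against SQL. Few positions were also shared among CpG DMRs that named a TE, with 47, or 4.19% and 2.86% in the same order. At 11 of the 61 the direction was the same (18.03%, 10.4 to 29.5), with 4 gains and 7 losses in both. At the other 50 it was opposite, with 27 gains in FLH that were losses in FLL and 23 the other way.

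CpG DMRs that named a TE were not mostly opposite. There, 25 of 47 shared positions had the same direction (53.2%, 39.2 to 66.7), and 23 of these 25 were losses in both. The share differed between genic and TE positions (two-sided Fisher's exact test, p = 1.8e-04, chosen after the counts were seen). With any overlap counted as shared, 15 of 69 genic positions had the same direction (21.7%), and with at least 8 reads per cytosine 3 of 32 (9.38%). The 2 comparisons of intensity, which also share no library, had 6 genic positions in common, and the direction was opposite at all 6, as it was at 3 of 4 such positions that named a TE.

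The 62 positions with levels in all regimes show the arrangement of the 4 libraries. They are the 61 positions listed in both comparisons of pattern, and that of AT1G20760. The counts below therefore restate the directions given above and are not a separate observation. At 51 (82.3%, 71.0 to 89.8) FLL and SQH lay together on 1 side of FLH and SQL, being higher at 24 and lower at 27. At 11 both FL libraries lay on 1 side of both SQ libraries, being higher at 4 and lower at 7. Each of the 62 positions fell in 1 of these classes, and FLL with SQL apart from FLH with SQH was not seen. That arrangement has less room where FLL and SQL, or FLH and SQH, were called different. The classes go by rank, so the calling does not forbid it. At the 51 positions the median absolute difference was 5.32 points between FLL and SQH and 5.52 points between FLH and SQL, against 30.98 points between FLL and FLH and 27.0 points between SQL and SQH, which describes the class and does not test it. Over all 62 positions these medians were 6.88, 6.20, 29.7 and 23.3 points in the same order. The tables hold no direct comparison of FLL with SQH or of FLH with SQL. Whether plant cohorts or library batches paired the libraries in this way was not tested, and with 1 library each it cannot be told apart from the regimes.

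**Figure D4:**
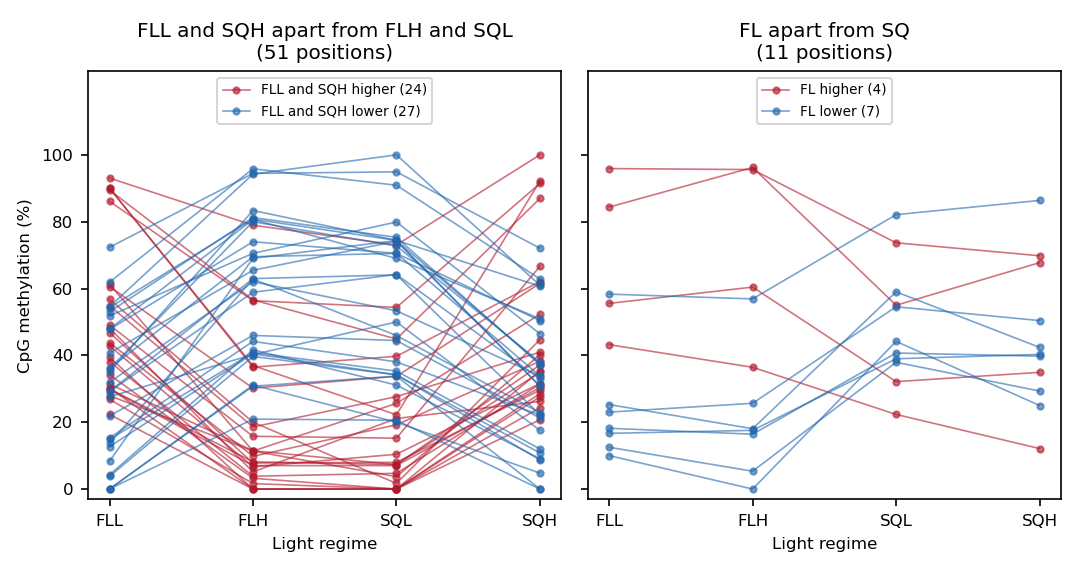
CpG methylation (vertical axis, percent) in the FLL, FLH, SQL and SQH libraries (horizontal axis) at the 62 genic positions with levels in all of them, with 1 line per position. On the left are the 51 positions where FLL and SQH lay apart from FLH and SQL (24 with FLL and SQH higher in red, 27 lower in blue), and on the right the 11 where both FL libraries lay apart from both SQ libraries (4 higher in red, 7 lower in blue).

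Named examples of the larger class came from the 12 positions whose lowest depth was the highest. MIR157a, the precursor of a miRNA that targets SPL transcription factors, had 29.9% in FLL, 7.02% in FLH, 7.02% in SQL and 30.4% in SQH. POK1, a kinesin that orients the plane of cell division, had 31.9% in FLL, 62.0% in FLH, 53.3% in SQL and 33.9% in SQH. AT5G45060, of the TIR-NBS-LRR class of disease resistance proteins, had 0% in FLL, 31.1% in FLH, 20% in SQL and 4.76% in SQH. Its intron was thus without detected methylation in FLL (0 of 53 reads, 95% upper limit 6.76%).

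PAN, a bZIP factor that sets the number of floral organs, had 42.9% in FLL, 6.67% in FLH, 10.4% in SQL and 31.6% in SQH. ELF7, a subunit of the PAF1 complex that acts with RNA polymerase II, had 30.2% in FLL, 0% in FLH, 0% in SQL and 20.8% in SQH. In both genes the region was in a coding exon, and no methylated read was found in FLH and SQL at ELF7. AT1G07220, an O-glucosyltransferase, had 46.8% in FLL, 7.79% in FLH, 8.0% in SQL and 29.6% in SQH, and AT2G44640 31.4%, 11.5%, 7.32% and 34.9% in the same order. The largest difference between FLL and SQH in this class, 28.04 points, was that of EMB1444, with 90.1% in FLL, 36.5% in FLH, 39.7% in SQL and 62.1% in SQH.

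AT1G20760 had 56.8% in FLL, 20% in FLH, 1.69% in SQL and 44.7% in SQH. 4CL5, an enzyme of the phenylpropanoid pathway, had 48.1% in FLL, 5.13% in FLH, 21.1% in SQL and 26.2% in SQH, so SQL and SQH differed little there. In the 5 genes with a region in all 4 comparisons, namely AT3G58730, AT1G20925, AT1G62975, AT3G62040 and TRP1, which share libraries between comparisons, the position listed in all of them is among the 51 above. The last 3 of these genes were named after their values were seen. A position called in both comparisons of intensity as well as both of pattern has little room for the other class, so this follows largely from the calling. TRP1, a telomeric repeat binding protein, had 49.1% in FLL, 15.8% in FLH, 15.2% in SQL and 66.7% in SQH, on 24 to 55 reads. AT1G62975, a bHLH protein, had 29.2%, 63.0%, 64.1% and 22.2% in the same order, and the hydrolase AT3G62040 had 89.5%, 56.6%, 44.9% and 87.0%.

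The 11 positions where both FL libraries differed from both SQ libraries were chosen for naming after their values were seen, except that of AT1G27880. The study also names CRD1. CRD1, which closes the fifth ring of the chlorophyll precursor in the chloroplast, had 18.2% in FLL (55 reads), 16.4% in FLH (67 reads), 40.7% in SQL (86 reads) and 39.8% in SQH (88 reads). AT1G27880 had 58.3% in FLL (72 reads), 56.9% in FLH (58 reads), 82.1% in SQL (95 reads) and 86.4% in SQH (44 reads). Both genes were lower in the FL libraries at both intensities, with little difference between the intensities.

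LOX2, a chloroplast lipoxygenase of jasmonate synthesis, had 25.3% in FLL, 18.1% in FLH, 59.0% in SQL and 42.4% in SQH. ABO1, a subunit of the Elongator complex, had 16.7% in FLL, 17.6% in FLH, 39.0% in SQL and 40.3% in SQH. AT5G49900, AT5G50940 and AT5G41330 were also lower in FL, at 0% to 25.7% in the FL libraries and 25% to 54.5% in the SQ libraries. The levels were higher in FL at IDH-V, a mitochondrial isocitrate dehydrogenase (55.6% in FLL, 60.4% in FLH, 32.1% in SQL and 34.9% in SQH), and at HR2 (43.2% in FLL, 36.4% in FLH, 22.3% in SQL and 12.1% in SQH). AT5G41940 and AT4G22485 had 84.4% to 96.2% in FL and 55.0% to 73.7% in SQ. At MCCA, a subunit of methylcrotonyl-CoA carboxylase in leucine breakdown, which the study discusses, the comparisons of pattern had intron regions at different positions. One had 63.6% in FLH and 89.8% in SQH (66 and 59 reads, chromosome 1 from 743701), and the other had 100% in FLL and 62.5% in SQL (32 and 40 reads, from 742351), in opposite directions. The study describes the location in both MCCA and AT1G27880 as unchanged between the intensities. Among the genic regions taken here this held for AT1G27880 and not for MCCA.

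Repeated hits within a gene were uncommon. Of the 2267 loci, 2031 had 1 position and 236 (10.4%) had 2 or more. In how many comparisons a locus was named was 1 for 1743 loci, 2 for 446, 3 for 73 and 4 for 5. The pseudogene AT3G32914 had the most positions, 6, with listed levels between 55.0% and 100% and losses at 5 of them. CHR38, the chromatin remodeller known as CLASSY1 that recruits RNA polymerase IV to sites of RNA-directed DNA methylation, had 4 positions, all in coding exons.

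CHR38 was lower in FLL at 3 of these positions in both comparisons that include FLL. They had 17.8% in FLL, 43.9% in FLH and 41.6% in SQL at the first, 66.7%, 92.4% and 87.2% in the same order at the second, and 26.7%, 52.0% and 51.3% at the third. At the remaining one the level was 53.9% in FLL and 30.9% in SQL. Since both comparisons use the same FLL reads, these are not separate observations of FLL. AT1G23230, a Mediator subunit, had 4 positions with 2 gains and 2 losses in FLL against SQL. Adjacent intron bins went opposite ways, with 21.2% in FLL and 0% in SQL at one and 1.72% in FLL and 25.4% in SQL at the next.

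ABCI4, a cytochrome c assembly protein, had 4 positions, each lower in FLL, with 3.90% to 10.5% in FLL against 30.99% and 33.5% in FLH and 26.3% and 31.8% in SQL. A pair of these positions overlap. The sequence of these positions also occurs elsewhere in the genome, so their reads may come from more than 1 locus. For the positions starting at 3288851, 3289451 and 3290501 on chromosome 2, the copies include the mitochondrial sequence. The transcribed pseudogene AT2G11930 had 4 positions with 2 gains and 2 losses and levels from 60.5% to 92.6%. When positions within 1 kb were joined, 95 genes had 2 or more separate clusters. Regions of 1 gene share plants, libraries and often reads, and are not replicates.

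Of the 60 genes of 4 lists of known pathway genes, 13 (21.7%) had a genic CpG region, beside 7.49% of all protein-coding genes. The listed genes were longer than others, with median lengths of 5570 bp for DNA methylation and demethylation, 4210 bp for photoreceptors and light signalling, 3121 bp for photoprotection and 3588 bp for the circadian clock, against 2078 bp for all. Per 1000 bins the lists had 12.2, 7.09, 0 and 14.6 positions, against 6.63 for all genes. These rest on 8, 3, 0 and 3 positions, and no test was made of them. None of the 9 photoprotection genes, such as PSBS, STN7 and VDE, had a region.

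Of the 23 DNA methylation and demethylation genes, 7 had a region. MET1 had 33.3% in FLL (22.9 to 45.6, 63 reads) and 59.7% in SQL (47.7 to 70.6, 67 reads). CMT3, the chromomethylase of CpHpG sites, had 19.0% in FLL (42 reads), 55.0% in FLH (40 reads) and 58.6% in SQL (58 reads) at one coding exon and 46.7% in FLL and 71.0% in SQL (107 reads each) at another. AGO4, which binds small RNAs in RNA-directed DNA methylation, had 1.25% in FLL (1 of 80 reads) and 26.8% in SQL (22 of 82 reads). FLL was the lower library at these regions, beside 22.4% gains and otherwise losses among all CpG DMRs of FLL against SQL.

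ROS1, a DNA glycosylase that removes methylated cytosine, had 26.5% in FLH and 6.41% in SQH in a coding exon, and its relative DML2 had 21.4% in FLH and 60.6% in SQH in an intron. SUVH6, a histone methyltransferase, had 38.0% in FLL and 70.0% in FLH, and VIM3, a partner of MET1, had 82.7% in FLH and 60.0% in SQH. Of the 17 light signalling genes, 3 had a region. The blue light receptor CRY1 had 80.0% in FLH and 52.9% in SQH, whereas its relative CRY2 had 35.3% in FLH and 61.4% in SQH. COP1, a ubiquitin ligase that represses light responses in the dark, had 68.8% in FLL and 90.1% in FLH.

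The 3 of 11 clock genes with a region were CCA1, TOC1 and GI, all in coding exons. CCA1, a transcription factor of the morning, had 80.0% in SQL (64.1 to 90.0, 35 reads) and 38.5% in SQH (24.9 to 54.1, 39 reads), and 41.4% in FLL (25.5 to 59.3, 29 reads) against the same 80.0% in SQL. TOC1, expressed in the evening, had 31.3% in FLL (67 reads) and 57.1% in SQL (119 reads). GI, which links the clock to flowering, had 84.3% in FLL (74.0 to 91.0), 56.9% in FLH (44.8 to 68.2) and 83.1% in SQH (72.2 to 90.3). CCA1 was thus high in SQL among 3 libraries and GI low in FLH among 3, and the fourth level of each was not listed. Expression was not analysed here.

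**Figure D5:**
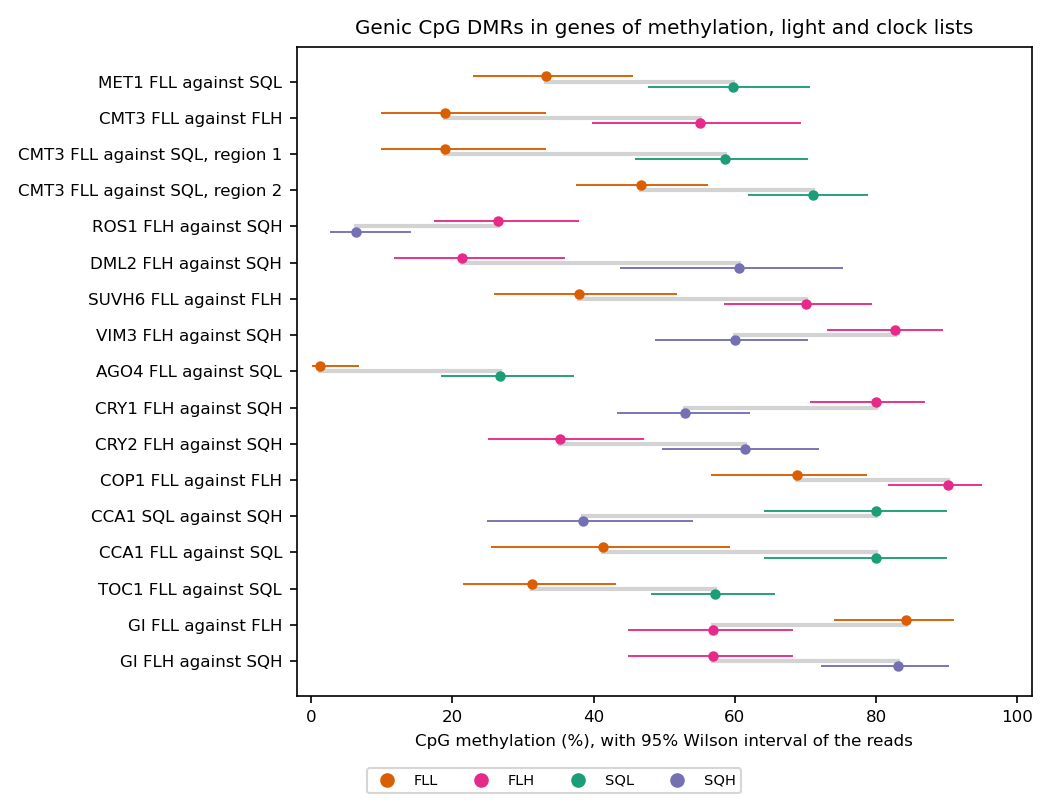
CpG methylation (horizontal axis, percent) of the genic regions in the 13 listed genes with 1, with a row per gene and comparison, points coloured by regime (the regime named first is the upper point) and 95% Wilson intervals of the summed reads as error bars. The FLL point is left of the SQL point in each FLL against SQL row, for example 33.3% and 59.7% at MET1, in a comparison where 30.98% of all genic regions were higher in FLL.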

How the data were processed

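Whole-genome bisulfite sequencing of Arabidopsis leaf DNA gave 1 library per light regime. Per the labels, reads were trimmed with Trimmomatic 0.39 and aligned to TAIR10 with Bismark and Bowtie2. The authors used deduplicated reads and DMRcaller's bins method (150 bp), with a minimum of 4 cytosines and of 4 reads per cytosine, a P-value threshold of 0.01 and a stated minimum difference of 0.2 for CpG. Of the regions, 54 span more than 1 bin. The deposited values per DMR are counts of methylated reads and of all reads, summed over its cytosines without normalization, and the fraction (proportion) that the authors computed from them. The p-value that the authors deposited was used only as a stricter filter (at most 0.001). The columns of direction and difference were not used, and levels and differences were recomputed from the counts. Depth of bins that were not called was not analysed here.

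A region was counted once per table by chromosome, start and end. CpG cytosines are counted over both strands. Positions were taken from the region's midpoint on the RefSeq annotation (TAIR10.1, the transcript with the longest coding sequence), after the number of cytosines per region was checked against that sequence. The background is every 150 bp bin with at least 4 CpG cytosines, whatever its depth and whether or not it overlaps a TE. Directions were compared with two-sided Fisher's exact tests on numbers of regions, with Benjamini-Hochberg adjustment, and intervals are Wilson intervals at 95%, which cover counting error only. Neighbouring regions are not independent, so these p-values describe the libraries. The functions were tested on simulated data. Alternatives changed the depth (8 reads per cytosine), the P-value (0.001), the difference (0.4), the joining of regions within 1 kb, the overlap and the gene types.

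The regions and gene lists were chosen with earlier results of these data known, and the gene-poor windows were added after the data were seen. Genes named are the 2 gains and 2 losses with the largest difference per comparison at 8 reads per cytosine or more in both regimes, the 5 genes with the most positions, the 12 positions of highest depth with levels in all regimes, listed genes with a region, and MCCA and AT1G27880, which the study discusses. Computations used SciPy 1.17.1, pandas 2.3.3 and numpy 2.4.6 under Python 3.11.15, with figures drawn in matplotlib 3.10.9.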

Additional observations from a re-analysis of the deposited data

Results flagged for a closer look

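Among genic regions, the share of gains differed by -12.1 percentage points between the comparisons of light pattern at low and at high intensity (30.98% in FLL against SQL and 43.1% in FLH against SQH, exact test, adjusted p = 8.3e-08). The gap was not particular to them, since among all CpG DMRs gains made up 22.4% in FLL against SQL and 42.4% in FLH against SQH, and among those that named a TE 15.6% and 40.9%. At 50 of the 61 positions that both of these comparisons list, the level moved in opposite directions at low and at high intensity. At all 6 positions that both comparisons of intensity list, the level moved in opposite directions under fluctuating and under square-wave light. At single positions the difference between the contrasts was not tested, and each level comes from 1 library.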

How the results depend on the processing

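Numbers of regions and genes were counted as moved only beyond a fixed ratio. The fall from 1430 to 1097 regions in FLL against SQL at 8 reads per cytosine stayed within it. Of 80 recomputed values, 54 kept their direction and side of the threshold, or stayed within counting error or that ratio. Of the others, 21 moved more, 3 lost their call and 2 changed direction without a call. Both were the contrast of gains with TEs in FLL against FLH, where the genic share was 52.6% at 8 reads (5.11 points above TEs) and 52.7% at a P-value of 0.001 (0.962 points above). At 8 reads per cytosine, regions numbered 11 in SQL against SQH and 375 in FLH against SQH. At a P-value of 0.001 they numbered 364 in FLL against FLH, 263 in FLH against SQH and 604 in FLL against SQL, and at a difference of 0.4 they numbered 25, 31 and 46. The share of gains in FLL against SQL was 34.8% at that difference, and the contrast with TEs was 21.3 points (exact test, adjusted p = 0.068), against 15.4 points in all regions. In FLH against SQH gains were 54.8% at that difference, against 43.1% in all regions. In exact tests the gap between the comparisons of pattern was -8.17 points at a P-value of 0.001 (adjusted p = 0.0506) and -20.1 points at a difference of 0.4 (adjusted p = 0.148). The number of regions was then much smaller. Positions called in the same direction were 9.38% at 8 reads. Of all distinct positions, including loci without coding sequence, coding exons held 58.1% and introns 28.0%, and these were 82.4% and 5.74% by any overlap and 63.9% and 30.4% for protein-coding loci. At 8 reads the order of the medians turned round in FLL against FLH and in FLH against SQH. The median levels were 48.9% in FLL and 48.3% in FLH for FLL against FLH, 52.3% in FLH and 50.5% in SQH for FLH against SQH, and 53.1% in SQL for FLL against SQL, and pooled reads gave 52.4% in FLH for FLH against SQH. Genes with at least 2 positions numbered 236, or 95 after joining within 1 kb and 128 at 8 reads. No paired analysis was possible because each regime has 1 library. No replicate could be left out for the same reason. Counting error, few CpG sites per region and the unknown depth of bins that were not called limit what these tables can show.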
